A study of Rattus norvegicus with 12 samples.

Results

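Sds, the hepatic enzyme that turns serine into pyruvate and ammonia, is described here together with the serine synthesis genes and the main liver transaminases. The 10 genes were Sds, its paralog Sdsl, Phgdh, Psat1, Psph, Agxt, Got1, Gpt, Gpt2 and Tat, and every transcript row listed under one of these names was taken. Of the 10 genes, 9 had a row among the 24355 gene names of the deposited table and Sdsl was not analysed here. The 9 genes had 11 rows, because Sds and Psat1 each had 2, and the row with the highest mean RPKM over the 12 livers was taken as the main row of its gene. The main rows were thus chosen by measured values, the mean RPKM over all livers, so the levels below are a description.

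The livers came from 12 female rats of the inbred alcohol-preferring iP10a strain. The 6 EtOH animals could choose freely between water and 10, 20 and 30% ethanol for 23 weeks. The 6 control animals were kept on tap water over the same time. Food was freely available to both groups. The age at collection was 38 weeks, except for EtOH animal 6, which was 39 weeks old. All animals belonged to 1 inbred strain and 1 sex, the ethanol was self-chosen, and blood alcohol could not be detected when the animals were killed. Each animal gave 1 poly(A) RNA library, and per the authors all libraries shared a single lane.

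Serine is made in the cell from a glycolytic intermediate by Phgdh, Psat1 and Psph in turn, and it is broken down in the liver by Sds, which feeds its carbon into pyruvate and so into glucose. Transaminases move an amino group from an amino acid to a keto acid. Got1 does so for aspartate in the cytosol, Gpt and Gpt2 for alanine in the cytosol and the mitochondrion, Tat for tyrosine, and Agxt for alanine and glyoxylate, with serine as another substrate. In the liver Sds and Tat are known as genes that glucagon and glucocorticoids induce, and the blood levels of the Got1 and Gpt proteins are read as AST and ALT.

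Upstream sequences were at hand for 7 of the 10 genes, in the RefSeq annotation of the rat build GRCr8. None was at hand for Sds, which also rose, or for Sdsl and Gpt. The 250 bases before the start site are shown for Got1, which rose in the EtOH livers, and Psat1, which fell, so that 1 member of each direction can be compared. Capitals mark CCAAT, or ATTGG where the motif lies on the other strand. The Got1 window is chr1:252329872-252330121 and the Psat1 window chr1:222645409-222645658, both on the minus strand and written 5′ to 3′.
Got1: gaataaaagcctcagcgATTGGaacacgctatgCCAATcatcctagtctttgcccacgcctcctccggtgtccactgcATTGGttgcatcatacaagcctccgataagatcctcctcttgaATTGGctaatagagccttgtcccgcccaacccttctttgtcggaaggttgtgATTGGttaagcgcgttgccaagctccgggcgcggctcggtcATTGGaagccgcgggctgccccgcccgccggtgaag
Psat1: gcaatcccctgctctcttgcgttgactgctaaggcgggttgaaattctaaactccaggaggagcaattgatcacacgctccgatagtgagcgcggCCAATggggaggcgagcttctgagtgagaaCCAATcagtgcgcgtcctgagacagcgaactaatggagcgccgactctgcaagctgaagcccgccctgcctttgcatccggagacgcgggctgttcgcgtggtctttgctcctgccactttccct
Got1 carried 6 such matches and Psat1 carried 2. Over all 33469 promoter windows of the annotation, each with 50 more bases after the start, 37.5% held at least 1 match, 11.2% at least 2 and 0.0418% at least 6. The motif was chosen after the sequences had been seen, so these shares describe the windows only. Among the other members with an entry, Tat had 3 matches and Phgdh 1, Psph and Gpt2 had none, and of the 2 windows of Agxt 1 had a match. TGATGNAA, searched on both strands, was found in the windows of Got1 and Tat and in 3.98% of all windows. TGACG and CACGTG, held by 21.2% and 6.42% of all windows on either strand, were in no window of a member, and TGTTCT, held by 20.7%, was in 1 window of Agxt. None of these motifs contains another.

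Whole reads could be recovered from the RPKM steps, and between 2610238 and 4318141 reads per control liver and between 3945593 and 6030028 per EtOH liver lay in the listed transcripts. The EtOH libraries were thus the deeper ones (two-sided exact permutation test, p = 0.0108). Albumin, at a mean of 70352 RPKM in the controls and 79085 in the EtOH livers, led the hepatocyte markers, none of whose 5 tested genes was called. Quantile normalization gives transcripts of equal rank the same value in every liver. It left a log2 difference of 0 for albumin and Tf, which therefore could not be called. Of the Kupffer cell markers, 3 of 4 tested genes rose in the EtOH livers, namely Vsig4 (log2 difference 0.46, adjusted p = 0.00342), Clec4f (0.48, adjusted p = 0.0246) and Cd163 (0.66, adjusted p = 0.0427), and their summed level ranged from 80.9 to 121 RPKM in the controls and from 110 to 133 in the EtOH livers. With no normalization between livers 1 of the 4, Vsig4, was called. Clec4f was not called without EtOH animal 1, 3, 4 or 5 or control animal 4, and Cd163 was called only without EtOH animal 6 or control animal 6 when 1 liver was left out. None of the 6 stellate, 3 endothelial, 3 cholangiocyte, 2 red cell or 3 pancreatic acinar markers tested was called. Of the acinar list Prss1, Ctrb1 and Pnlip were at 0 in all livers. Cpa1 of that list was detected, at 40.9 ± 18.6 RPKM in the controls and 26.7 ± 11.9 RPKM in the EtOH livers, on 1506 and 1347 reads. Of the 5 lymphocyte markers Cd79a was called, on 0 reads in the controls and 9 in the EtOH livers, and leaving out any liver but EtOH animal 4 ended that call. The part of depth and of these cells in the results below was not tested. In whole tissue, fewer cells of a type and less RNA per cell cannot be told apart.

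Of the 9 genes, Sds and Got1 rose in the EtOH livers, Psat1 fell, and the other 6 did not pass the test. A row was called where its Benjamini-Hochberg adjusted p over all 21718 detected transcripts was under 0.05 in limma, on quantile-normalized log2 values of RPKM plus 0.5. All log2 differences below are EtOH minus control on that scale, with their standard error (SE), and understate the change of low genes. Quantile normalization also shifted them upward. Over transcripts with a mean of at least 1 RPKM the median was 0.0078, against -0.08 on the deposited values. A small log2 difference can thus have another sign than the RPKM means beside it. Over the main rows of all genes 3.26% were called, 1.53% as higher and 1.74% as lower in the EtOH livers, and 4.25% had groups that did not overlap. Over all transcripts the share called was 2.42%. The groups of the 3 called members did not overlap. Among the 9544 genes with a mean of at least 1 RPKM, Sds had the highest log2 difference, Got1 ranked 3 from the top, and Psat1 ranked 32 from the bottom. The genes had been chosen with earlier results of these data known, so their number of calls is no independent evidence.

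**Figure D1:**
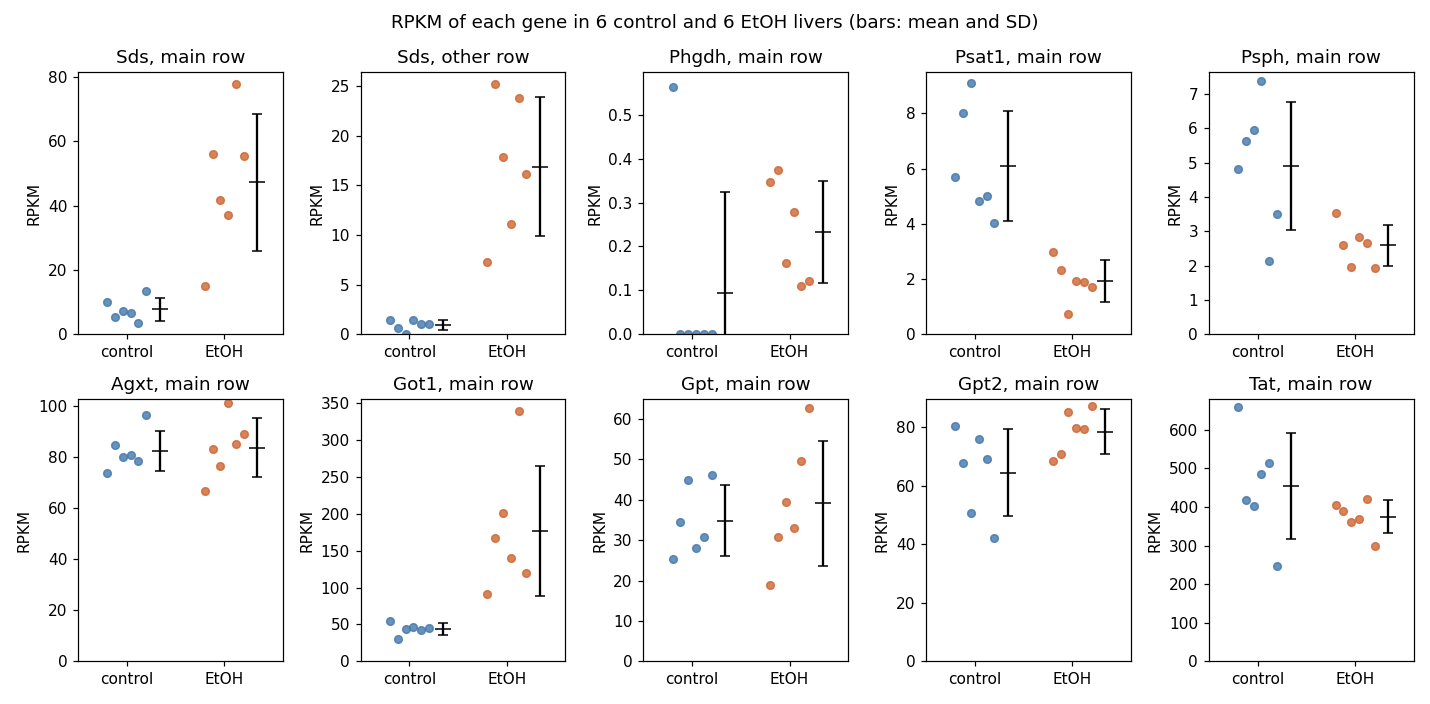
RPKM (y axis, linear from 0) of 10 transcript rows of the 9 genes in each liver, with control livers in blue and EtOH livers in orange, and the mean with SD in black, cut at 0. The groups do not overlap for both Sds rows, Got1 and Psat1, and they overlap for the other genes.

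The main row of Sds (chromosome 12, 37281094 to 37286068 in the table's coordinates, whose build was not stated in the sources used) was low in every control liver. The control values ran from 3.41 in animal 5 through a median of 6.92 to 13.5 RPKM in animal 6, on 16 to 73 reads each. The EtOH values ran from 15.0 in animal 1 through a median of 48.6 to 77.8 RPKM in animal 5, on 81 to 440 reads. All EtOH livers were thus above all control livers, with EtOH animal 1 close to control animal 6 and the other 5 at 37.0 RPKM or more. The mean went from 7.67 ± 3.57 to 47.2 ± 21.2 RPKM (SD, n = 6 each), a ratio of 6.15. The log2 difference was 2.62 (SE 0.39, limma adjusted p = 0.00565). The relative spread between livers was alike in the groups, with a coefficient of variation of 46.5% in the controls and 45.0% in the EtOH livers.

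The other row of Sds, which has the same coordinates and is 1.09 times as long, changed in the same direction. It was at 0 in control animal 3 and reached at most 1.39 RPKM in the controls, on 25 reads over the 6 livers together. In the EtOH livers it ran from 7.30 through a median of 17.0 to 25.2 RPKM, on 649 reads. The mean went from 0.897 ± 0.526 to 16.9 ± 6.99 RPKM (SD, n = 6 each), and the log2 difference was 3.72 (SE 0.37, limma adjusted p = 5.46e-04). With both rows added, Sds was at 8.57 ± 3.71 RPKM in the controls and at 64.0 ± 27.5 RPKM in the EtOH livers, a ratio of 7.47.

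The rows of Sds did not rise in equal measure. The main row held 88.5% ± 7.82 of the summed Sds RPKM (SD, n = 6) in the controls and 72.9% ± 4.61 (SD, n = 6) in the EtOH livers. The control shares lay between 77.7% in animal 5 and 100% in animal 3, and the EtOH shares between 67.3% in animal 1 and 77.5% in animal 6. The groups do not overlap, but the highest EtOH share and the lowest control share nearly meet. The difference of -15.6 percentage points had a p of 0.00216 in a two-sided exact permutation test, the smallest that 6 against 6 livers can give, and 0.00433 after adjustment over the 2 genes with more than 1 row. A liver had as few as 21 Sds reads in the controls and 124 in the EtOH group, and how the software divided reads that fit both rows was not stated.

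**Figure D2:**
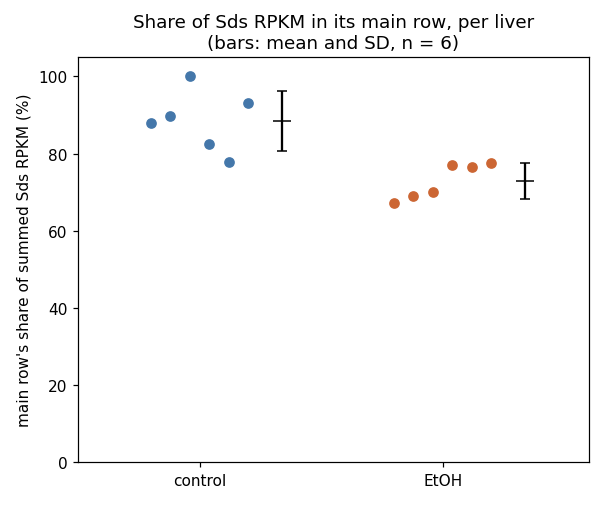
Share of the summed Sds RPKM that lies in the main row (y axis, %), for each control (blue) and EtOH (orange) liver, with the mean and SD in black. All 6 EtOH shares, 77.5% at most, lie below the lowest control share of 77.7%.

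The serine synthesis genes did not share the rise of Sds. Psat1, the transaminase of the pathway, fell, Psph, its last enzyme, had a lower mean without passing the test, and Phgdh, its first enzyme, was close to undetected. The main row of Psat1 (chromosome 1, 219268422 to 219290273) ran from 4.02 in control animal 6 through a median of 5.35 to 9.09 RPKM in control animal 3. In the EtOH livers it ran from 0.728 in animal 3 through a median of 1.89 to 3.00 RPKM in animal 1. No EtOH liver reached the lowest control liver. The mean went from 6.10 ± 2.00 to 1.93 ± 0.747 RPKM (SD, n = 6 each), 3.17 times lower in the EtOH livers, on 276 and 118 reads. The log2 difference was -1.39 (SE 0.25, limma adjusted p = 0.0158). The other row of Psat1, which starts at 219269010, was above 0 only in control animal 4 and EtOH animal 3. It had 1 recovered read in each, the lowest number that fits, and nothing can be read from it.

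Psph (chromosome 12, 27969750 to 27984318) ran from 2.14 through a median of 5.22 to 7.38 RPKM in the controls and from 1.94 through 2.63 to 3.53 RPKM in the EtOH livers. The groups overlap because of control animals 5 and 6, while all 6 EtOH livers lay below the control median. The means were 4.91 ± 1.86 and 2.59 ± 0.595 RPKM (SD, n = 6 each), and the log2 difference of -0.68 (SE 0.24) had a limma adjusted p of 0.185. Without control animal 5 it was -0.88 with an adjusted p of 0.0418. Phgdh (chromosome 2, 193147943 to 193176959) had 3 reads in control animal 1, at 0.563 RPKM, and was listed at 0 in the other 5 controls. Each EtOH liver had 1 to 3 reads, at 0.110 to 0.373 RPKM, 13 reads in all. The limma log2 difference of 0.33 (SE 0.18) had an adjusted p of 0.443, and without control animal 1 it was 0.50 with an adjusted p of 0.0316. At this depth no direction can be given for Phgdh.

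Set against each other within a liver, the main rows of Sds and Psat1 parted in every EtOH animal. Their ratio was 1.44 ± 1.03 in the controls, between 0.673 and 3.36. In the EtOH livers it was 29.9 ± 18.2 (SD, n = 6 each), between 5.01 in animal 1 and 57.2 in animal 3. A ratio within a liver does not depend on the scaling between livers, and these ranges do not overlap, which follows from the direction of both genes.

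Got1, the cytosolic aspartate transaminase (chromosome 1, 247324252 to 247347545), rose as Sds did. The controls ran from 30.2 in animal 2 through a median of 44.4 to 54.9 RPKM in animal 1. The EtOH livers ran from 90.7 in animal 1 through a median of 154 to 340 RPKM in animal 5. Every EtOH liver was above every control liver, and the EtOH group was the more spread, with a coefficient of variation of 50.2% against 18.2%. The mean went from 43.8 ± 7.95 to 176 ± 88.5 RPKM (SD, n = 6 each), a ratio of 4.03, on 1907 and 10885 reads. The log2 difference was 2.04 (SE 0.26, limma adjusted p = 0.00260).

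Got2, the mitochondrial enzyme of the same reaction and no member of the set, was at 173 ± 14.4 RPKM (SD, n = 6) in the controls and 165 ± 8.72 RPKM (SD, n = 6) in the EtOH livers, with a limma log2 difference of 0.09 (adjusted p = 0.512). The RPKM mean of Got2 was lower in the EtOH livers while the normalized difference was above 0, so no direction is given for it. Within a liver, Got1 was at 0.256 ± 0.0595 of the Got2 level in the controls and at 1.07 ± 0.534 in the EtOH livers. The control ratios ran from 0.157 to 0.322 and the EtOH ratios from 0.541 to 2.03. The cytosolic transcript was thus the lower one in all controls and passed the mitochondrial one in EtOH animals 2, 3 and 5.

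The alanine transaminases did not pass the test. Gpt (chromosome 7, 114746050 to 114748902) ran from 25.2 to 46.0 RPKM in the controls and from 18.8 to 62.7 in the EtOH livers, with means of 34.8 ± 8.72 and 39.1 ± 15.4 RPKM (SD, n = 6 each). Its log2 difference of 0.25 (SE 0.25) had a limma adjusted p of 0.649, and an interval of 2 SE runs from -0.24 to 0.74. Gpt2 (chromosome 19, 22884586 to 22915553) ran from 42.1 through a median of 68.4 to 80.4 RPKM in the controls and from 68.4 through 79.6 to 87.3 RPKM in the EtOH livers. Its means were 64.4 ± 14.9 and 78.5 ± 7.58 RPKM, and the log2 difference of 0.47 (SE 0.15) had an unadjusted p of 0.00722 and an adjusted p of 0.123 in limma. For Gpt2 the 3 highest controls lay within the range of the EtOH livers, and control animals 3 and 6 were lower than the rest.

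Tat and Agxt, the most abundant members in the controls, did not pass the test either. Tat (chromosome 19, 39854122 to 39865374) ran from 248 to 658 RPKM in the controls and from 300 to 422 in the EtOH livers, with means of 454 ± 136 and 374 ± 42.8 RPKM (SD, n = 6 each). Its limma log2 difference was -0.15 (SE 0.20, adjusted p = 0.734), with an interval of 2 SE from -0.55 to 0.25. All EtOH livers lay within the range of the controls, and the coefficient of variation was 30.0% in the controls and 11.4% in the EtOH livers. Agxt (chromosome 9, 92412128 to 92422075) had means of 82.3 ± 7.72 and 83.4 ± 11.5 RPKM (SD, n = 6 each), with a log2 difference of 0.17 (SE 0.09, limma adjusted p = 0.445) and an interval of 2 SE from -0.02 to 0.36. With no normalization between livers the log2 difference of Agxt was 0.01. The intervals of Gpt, Tat and Agxt all hold 0 and all leave out a change as large as that of Got1.

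**Figure D3:**
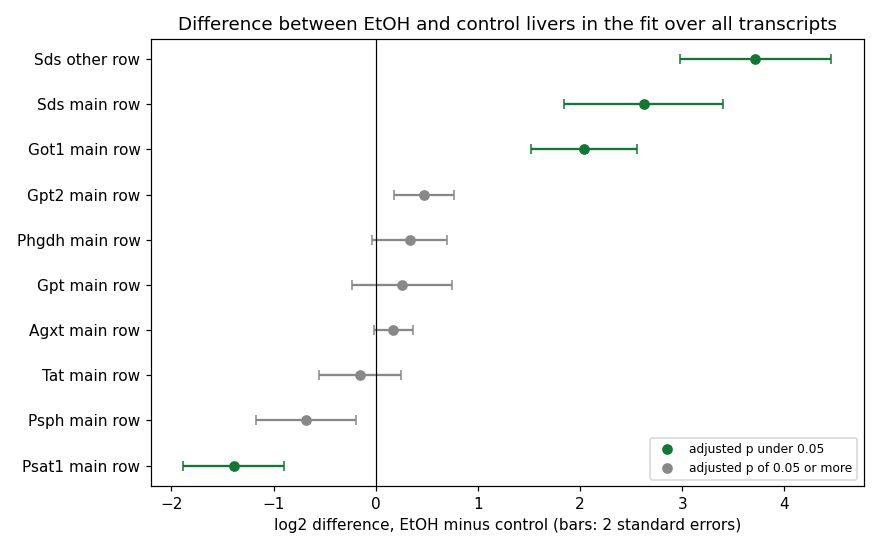
Log2 difference of EtOH minus control (x axis) for 10 transcript rows of the 9 genes, with bars of 2 standard errors on each side. Rows with an adjusted p under 0.05 are green, and of these both Sds rows (3.72 and 2.62) and Got1 (2.04) lie to the right of 0 and Psat1 (-1.39) to the left.

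RPKM is corrected for transcript length, so the main rows of the members can also be ordered by their level within a liver. In the controls the order of the mean levels was Tat, Agxt, Gpt2, Got1, Gpt, Sds, Psat1, Psph and Phgdh. Neighbours in this order had overlapping ranges, except Tat and Agxt, Gpt and Sds, and Psph and Phgdh. In the EtOH livers the order was Tat, Got1, Agxt, Gpt2, Sds, Gpt, Psph, Psat1 and Phgdh, and here the ranges overlapped except between Gpt and Psph and between Psat1 and Phgdh. Got1 thus moved from the place after Gpt2 to the place after Tat, and it was above Agxt in 6 of 6 EtOH livers. The main row of Sds was below Gpt in all controls, at 0.225 ± 0.105 of its level. It was above Gpt in 4 of 6 EtOH livers, at a mean ratio of 1.21 ± 0.401 (SD, n = 6 each). The other row of Sds is left out of these ratios. With both rows added the EtOH mean of Sds was 64.0 RPKM, against 39.1 RPKM for Gpt. Psph and Psat1 also changed places, with Psph the higher one in 6 of 6 EtOH livers and Psat1 the higher one in 5 of 6 controls.

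In the EtOH livers several members had their lowest or highest RPKM in the same animal. These places were not compared with those of all genes. Of the 8 genes above 0 in every liver, EtOH animal 1 had the lowest value of its group for Sds, Agxt, Got1, Gpt and Gpt2 and the highest for Psat1 and Psph. EtOH animal 5 was the highest for Sds, Got1 and Tat. In the controls, animal 6 was the highest for Sds, Agxt and Gpt and the lowest for Psat1, Gpt2 and Tat. These members share their libraries, so the places are not independent of each other. How much ethanol each animal drank was not used here.

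Within the groups, 14 relations of Sds with the other 7 members above 0 in every liver were computed, and none had an adjusted p under 0.05. The lowest adjusted permutation p was 0.608 for Pearson's r and 0.937 for Spearman's rho. For Sds and Got1 in the EtOH livers, r was 0.75 (exact permutation p = 0.05, adjusted 0.608) and rho 0.71 (exact permutation p = 0.136, adjusted 0.937, n = 6). Without the 2 EtOH livers farthest from the median of Sds, r was -0.06, so that the relation in this group rests on them. In the controls r was 0.51 (exact permutation p = 0.292, adjusted 0.608), and 0.89 after the same step. With 4 livers left, neither value says whether the genes move together. Over the 12 livers, the transcripts of at least 5 RPKM whose deviations from the group means were most like those of Sds included those of Opa1 (r = 0.93), Gtf2h4 (0.84), Nufip1 (0.83) and Clcn7 (0.83), out of 5999. None of these 4 was called between the groups. Of the members, Gpt stood at place 43 (r = 0.70), Got1 at place 70 (0.66) and Agxt at place 201 (0.57). Gpt2 stood at place 3733 (r = -0.11) and Tat at place 4867 (-0.29), both below 0. These correlations describe the same 12 libraries and carry no test.

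**Figure D4:**
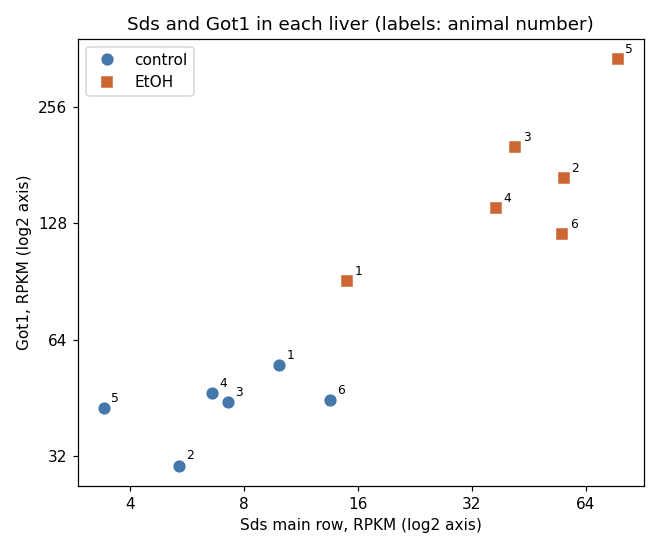
RPKM of Got1 (y axis, log2 scale) against the main row of Sds (x axis, log2 scale) in each liver, with control livers as blue circles, EtOH livers as orange squares and the animal number beside each. The groups are apart on both axes, with EtOH animal 1 (15.0 and 90.7 RPKM) nearest to the controls and EtOH animal 5 (77.8 and 340 RPKM) farthest from them.

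Of 12 tested other genes of serine, glycine and glyoxylate metabolism 2 fell, 0 rose and 10 did not pass the test, at a median log2 difference of -0.06 against 0.0078 over all transcripts with a mean of at least 1 RPKM. Cbs, which joins serine and homocysteine to cystathionine, fell from 73.4 ± 13.9 to 40.7 ± 6.13 RPKM (log2 difference -0.67, limma adjusted p = 0.0246), and its adjusted p was 0.0541 without control animal 2. Shmt2, which splits serine into glycine and a folate-bound carbon in the mitochondrion, fell from 86.3 ± 11.0 to 62.9 ± 2.32 RPKM (log2 difference -0.28, adjusted p = 0.0134). With only transcripts of a mean of at least 1 RPKM tested, 2 more genes, Gldc and Srr, were called as higher.

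Of the 8 other transaminases tested 2 rose and 6 did not pass the test, at a median log2 difference of 0.10. With no normalization between livers the median was 0.02 and only Oat was called. Oat, the ornithine transaminase, rose from 228 ± 56.7 to 416 ± 47.7 RPKM (log2 difference 1.01, limma adjusted p = 0.0127) with groups that did not overlap. Agxt2, a mitochondrial glyoxylate transaminase, went from 36.5 ± 3.62 to 44.6 ± 4.84 RPKM (log2 difference 0.44, adjusted p = 0.0299). The call of Agxt2 was lost in 10 of 23 alternatives, among them without EtOH animal 3, 4, 5 or 6 or control animal 2, 4 or 5. It was also lost with no normalization between livers, where the log2 difference was 0.28.

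Genes that break down other amino acids were mostly not called. Of 19 tested genes 2 rose, 0 fell and 17 did not pass the test, at a median log2 difference of 0.10. Amdhd1, of histidine breakdown, went from 118 ± 18.0 to 152 ± 18.1 RPKM (log2 difference 0.51, limma adjusted p = 0.0226), and its adjusted p was 0.0525 without EtOH animal 3. Gls2, the liver glutaminase, went from 73.9 ± 6.05 to 98.7 ± 20.0 RPKM (log2 difference 0.55, adjusted p = 0.0309), and it lost its call in 12 of 23 alternatives, among them without EtOH animal 2, 3, 5 or 6 or any of control animals 1 to 5. With no normalization between livers the 2 calls were others, Gcat and Pcbd1, both lower, so no direction is given for this list.

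Of 10 tested genes of gluconeogenesis and the malate-aspartate shuttle, in which Got1 takes part, 1 rose, and the median log2 difference was 0.03. It was Pck1, the enzyme that commits oxaloacetate to glucose synthesis, at 265 ± 49.9 RPKM (SD, n = 6) in the controls and 796 ± 184 RPKM (SD, n = 6) in the EtOH livers, a log2 difference of 1.62 (limma adjusted p = 5.06e-04). Over the main rows of all genes 1.53% were called as higher. Of 12 genes known to respond to glucagon or glucocorticoids 4 rose, 0 fell and 8 did not pass the test, at a median of 0.22. Besides Pck1 they were Klf9, a glucocorticoid-responsive transcription factor (log2 difference 1.27, adjusted p = 0.00344), Irs2, an insulin receptor substrate (1.25, adjusted p = 0.0235), and Igfbp1, a secreted binding protein of insulin-like growth factors (1.25, adjusted p = 0.0236). Irs2 was not called without EtOH animal 2 or 3 or control animal 4, and Igfbp1 was not called without EtOH animal 2 or 3. The 8 that did not pass were Ppargc1a, Cebpb, Nr4a1, Fkbp5, Tsc22d3, Per1, Sgk1 and Tdo2. Their log2 differences ran from -0.46 (Cebpb) to 0.39 (Ppargc1a). Tat, known to respond to the same hormones, was not among the called members.

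Psat1, Psph and Phgdh are known targets of Atf4, the transcription factor of the amino acid response. Of 17 other Atf4-related genes tested 3 fell, 0 rose and 14 did not pass the test, and the log2 difference was above 0 in 1 of 17, at a median of -0.37. Atf4 itself fell from 107 ± 15.7 to 64.3 ± 3.10 RPKM (log2 difference -0.57, limma adjusted p = 0.00507). Aars, an aminoacyl-tRNA synthetase, fell from 74.2 ± 5.32 to 50.9 ± 1.68 RPKM (log2 difference -0.37, adjusted p = 0.00103). Slc3a2, a subunit of amino acid transporters, went from 24.9 ± 4.50 to 15.7 ± 1.91 RPKM (log2 difference -0.48, adjusted p = 0.0456), and its call was lost in 14 of 23 alternatives, among them without any of EtOH animals 2 to 6 or control animals 1 to 5.

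Sds is known from the periportal zone of the lobule. Of 7 tested periportal genes 3 rose and 0 fell, at a median log2 difference of 0.46, and these were Pck1, Gls2 and Cps1, the first enzyme of the urea cycle. Cps1 went from 586 ± 61.3 to 850 ± 103 RPKM (log2 difference 0.58, limma adjusted p = 0.0224), and it was not called without EtOH animal 2, 3 or 5 or control animal 2. With a minimum mean of 0.1 or 1 RPKM the periportal gene Ass1 was called as higher as well. Of 9 tested pericentral genes 1 rose, Oat, and 1 fell, Lgr5, on 8 and 3 reads, at a median of 0.18. Lgr5 was not called without any one of the EtOH animals or without control animal 5, nor with either other scaling between livers. With median-ratio scaling Oat and Cyp2e1 were called, both as higher, and with a minimum mean of 1 RPKM Slc1a2 as well. The difference between the zones was not tested.

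**Figure D5:**
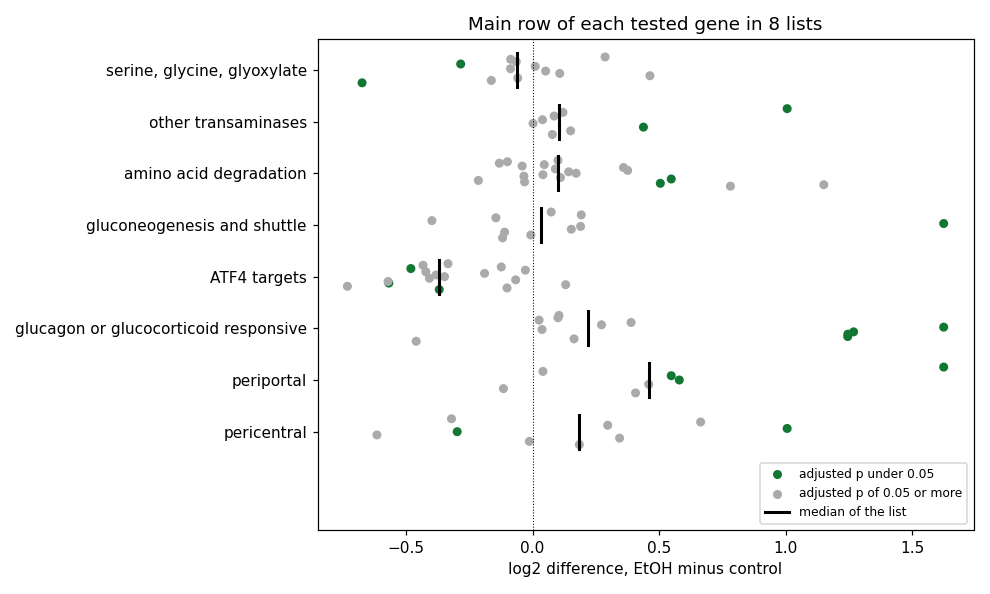
Log2 difference of EtOH minus control (x axis) for the main row of each tested gene in 8 lists, with genes of an adjusted p under 0.05 in green, the others in grey and the list median as a black bar. The Atf4 targets lie mostly left of 0, at a median of -0.37, and the rightmost point of 3 lists is the same gene, Pck1 (1.62).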

How the data were processed

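The authors sequenced poly(A) RNA of 12 livers in paired-end reads of 101 nucleotides, mapped them with CLCbio Genomics Workbench 4.9 (per the methods and the submitters' processing notes) and deposited RPKM (reads scaled to transcript length and mapped reads) for 34391 transcripts. The genome build and the rule for reads that fit several transcripts are not given in the sources used here. The authors' columns of p-value, FDR, fold change and test statistic were not used. RPKM plus a pseudocount of 0.5 was taken to log2, quantile normalized over the 12 livers and tested with limma 3.58.1 (R 4.3.3), with a mean-variance trend, for the 21718 transcripts detected in 1 or more livers, adjusted by Benjamini-Hochberg with a threshold of 0.05. Other steps used scipy 1.17.1, pandas 2.3.3 and numpy 2.4.6 in Python 3.11.15. Whole reads were recovered for all 21718 transcripts within 0.01 of a read, from the steps between RPKM values, between 2610238 and 6030028 per liver, so a row of a few reads has little precision. The lowest whole numbers that fit were taken. The 2052 transcripts above 0 in 1 liver only were thus given 1 read by construction, and counts of rows detected in few livers are lower bounds. The procedure was tested on simulated data.

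The members and lists were chosen with earlier results of these data known. Named genes are all rows of the members, the called genes of each of the 8 lists of related genes (at most 6, otherwise the 2 of smallest p) and the 5 transcripts most like Sds, of which 1 is not reported here. Called genes of the 8 cell type marker lists are named as well. Got2, as the partner of Got1, and list genes called only in an alternative were added after their values were seen. So were the uncalled genes of the glucagon or glucocorticoid list. Of 160 list entries 128 were matched by name, 2 of them through older symbols in RefSeq's annotation of GRCr8, and the rest were not analysed here. Alternatives were other pseudocounts, scalings, filters, a square-root scale, no trend, limma voom on recovered reads, the animal number as a block and each liver left out. Each animal is 1 replicate.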

Additional observations from a re-analysis of the deposited data

Results flagged for a closer look

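In 30 groups of 6 livers (the RPKM of each member row, the share of RPKM in the main row of Sds and Psat1, and the recovered reads and detected transcripts per liver), a single liver far from the other 5 was sought with Dixon's criterion, and 5 groups had one. Chance gives about 1 in 20 for normally distributed values, a rate that does not hold for rows at 0 in most livers, on which all 5 rest. Phgdh was at 0.563 RPKM in control animal 1 and listed at 0 in the other controls. The other row of Psat1 was at 1.58 RPKM in control animal 4 and at 0.813 RPKM in EtOH animal 3 and listed at 0 in all other livers. The share of the Psat1 main row restates these values and was 75.3% in control animal 4 and 47.3% in EtOH animal 3, and 100% elsewhere. Each of these values rests on 1 to 3 recovered reads, the lowest numbers that fit, of the row that is otherwise at 0.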

How the results depend on the processing

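Got1 and the other row of Sds kept their call in 23 of 23 alternatives, and the main rows of Sds and Psat1 in 22 of 23. The number of called members was 3 in all alternatives except the block (1) and leave-one-out, where it was 3 to 4. Leave-one-out log2 differences ran from 2.42 to 2.92 for the Sds main row, from 1.83 to 2.19 for Got1, from -1.51 to -1.22 for Psat1, from -0.88 to -0.56 for Psph and from 0.27 to 0.50 for Phgdh. For the other row of Psat1 they ran from -0.34 to 0.24, reversed without control animal 4, and for the Psat1 share from -8.79 to 4.12 percentage points, reversed without EtOH animal 3. Over all transcripts, 526 were called, 322 with the pooled square-root test, 860 with a minimum mean of 1 RPKM and 212 to 656 with 1 liver left out (212, 252, 295 and 298 without EtOH animals 2, 3, 4 and 5, 275 and 285 without control animals 2 and 4). Of the calls 53.4% were lower in EtOH livers, against 83.7% with no normalization, 63.5% with median-ratio scaling and 64.6% with the block. With the minimum mean of 1 RPKM, 4 of 18 amino acid breakdown genes rose and 5 of 11 Atf4 targets fell.

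EtOH and control animals share replicate numbers. Same-numbered livers did not deviate together (r between -0.07 and 0.03, and 1 of 6 highest for its own number). Such a correlation over many transcripts cannot show a pairing in only some of them, so it is not known whether the numbers pair animals. With the number as a replicate block 113 transcripts and 1 member, Got1, were called, and 0 of the serine and glycine, other transaminase and pericentral lists. Sds main (log2 difference 2.62) had an adjusted p of 0.0616 and Psat1 (-1.39) of 0.0869. Low read numbers limit Phgdh and the second Psat1 row.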
